A study of Homo sapiens with 12 samples.

Results

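The snoRNA host genes described here are 10 long noncoding RNA genes, SNHG1, SNHG3, SNHG5, SNHG7, SNHG8, SNHG12, SNHG15, SNHG16, GAS5 and ZFAS1. They were taken by name from the deposited gene tables, in which each name stood at 1 place, and they are 10 of 43828 gene places in all. The rule takes them by name and uses no measured value, though they were proposed with earlier results of these data known. All 10 passed the filter on low counts, both for exon reads and for intron reads, and so belong to the 23546 genes tested on exons and the 19908 tested on introns.

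The cells were CCRF-CEM, a human T lymphoblast leukemia line. The parent cells, wild-type for SLFN11 and positive for it, and cells labelled as SLFN11 knockout each received the solvent DMSO or 100 nM camptothecin for 4 h, which gave 4 groups with 3 libraries in each. Camptothecin traps topoisomerase I on DNA and so blocks replication forks and transcribing polymerases. SLFN11 is a protein of the schlafen family that binds stressed replication forks and makes cancer cells sensitive to drugs of this kind. No label gives the method of the knockout, the number of clones behind it or whether the 3 libraries of a group are separate cultures, so a p-value here covers the spread among the libraries alone, and that spread may be technical.

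Small nucleolar RNAs (snoRNAs) guide chemical modification of ribosomal RNA. Box C/D snoRNAs guide methylation of the ribose, and box H/ACA snoRNAs guide conversion of uridine to pseudouridine. In human cells nearly all snoRNAs are cut out of introns of host genes, and the 10 genes here are hosts whose spliced exons code for no known major protein. Such spliced host transcripts are known to carry short open reading frames, to engage ribosomes and to be destroyed by nonsense-mediated decay, so their level in growing cells depends on transcription and on translation-coupled decay. Many host genes start transcription at a pyrimidine tract, as genes of ribosomal proteins do.

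The snoRNA sequences are shown because 2 of the cargo RNAs of ZFAS1 gave calls of their own. The 3 box C/D snoRNAs of ZFAS1 are listed first, with box C (TGATGA) and the last box D (CTGA) in capitals, and the box H/ACA snoRNA SNORA73B of SNHG3, the most abundant snoRNA row, follows with its ACA box in capitals. Sequences and positions are from GENCODE on GRCh38, chr20:49278940-49279028 for SNORD12C, chr20:49280319-49280409 for SNORD12B, chr20:49280683-49280772 for SNORD12 and chr1:28508559-28508762 for SNORA73B, all on the plus strand.
SNORD12C: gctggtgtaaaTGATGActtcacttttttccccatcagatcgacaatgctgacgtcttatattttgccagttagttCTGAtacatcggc
SNORD12B: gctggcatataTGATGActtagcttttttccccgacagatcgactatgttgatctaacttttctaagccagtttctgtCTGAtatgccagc
SNORD12: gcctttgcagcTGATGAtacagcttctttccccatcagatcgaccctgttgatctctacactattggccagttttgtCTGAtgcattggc
SNORA73B: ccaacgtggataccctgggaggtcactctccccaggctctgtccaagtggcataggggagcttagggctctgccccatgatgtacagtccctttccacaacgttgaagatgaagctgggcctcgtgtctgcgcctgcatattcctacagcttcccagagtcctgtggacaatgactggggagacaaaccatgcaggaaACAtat
The 3 SNORD12 copies are 89, 91 and 90 bases long and share the 9 bases cagatcgac. The copies differ on both sides of that stretch, and whether any read was assigned to the wrong copy was not tested. That annotation lists 27 snoRNA entries, some overlapping, within 9 of the 10 hosts. Of these, 15 are box C/D and 12 are box H/ACA. SNHG1 holds 7, all box C/D. SNHG12 and SNHG7 hold several box H/ACA entries each, and none is listed there within GAS5, a gene known as a C/D host.

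Promoters are printed for the 3 hosts that rose most in parent cells (ZFAS1, SNHG12 and SNHG1) and for SNHG16, whose response was not called different between genotypes. Each runs from 250 bases before to 50 bases after the annotated start (RefSeq, GRCh38.p14), with TATAA and CTTT in capitals where they lie on the sense strand within 50 bases of the start. ZFAS1 is at chr20:49278392-49278691 on the plus strand, SNHG12 at chr1:28581824-28582123 on the minus strand, SNHG1 at chr11:62855836-62856135 on the minus strand and SNHG16 at chr17:76557514-76557813 on the plus strand.
ZFAS1: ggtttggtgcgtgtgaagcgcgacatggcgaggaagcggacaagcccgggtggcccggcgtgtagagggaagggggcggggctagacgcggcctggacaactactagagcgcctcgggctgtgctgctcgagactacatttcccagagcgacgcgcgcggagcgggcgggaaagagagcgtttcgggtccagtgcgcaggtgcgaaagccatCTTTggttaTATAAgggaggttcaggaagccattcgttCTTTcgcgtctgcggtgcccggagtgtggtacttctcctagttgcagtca
SNHG12: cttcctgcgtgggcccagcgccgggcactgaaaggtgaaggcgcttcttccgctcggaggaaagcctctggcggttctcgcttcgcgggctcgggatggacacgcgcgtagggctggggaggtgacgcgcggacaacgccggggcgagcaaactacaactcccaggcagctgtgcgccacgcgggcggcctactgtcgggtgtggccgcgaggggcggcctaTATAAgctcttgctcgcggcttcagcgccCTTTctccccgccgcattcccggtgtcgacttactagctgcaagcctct
SNHG1: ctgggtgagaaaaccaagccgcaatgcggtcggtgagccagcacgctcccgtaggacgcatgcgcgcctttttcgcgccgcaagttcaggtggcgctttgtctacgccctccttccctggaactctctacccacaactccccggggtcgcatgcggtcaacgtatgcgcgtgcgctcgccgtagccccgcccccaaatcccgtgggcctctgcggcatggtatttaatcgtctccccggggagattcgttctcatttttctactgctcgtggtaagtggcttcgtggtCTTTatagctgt
SNHG16: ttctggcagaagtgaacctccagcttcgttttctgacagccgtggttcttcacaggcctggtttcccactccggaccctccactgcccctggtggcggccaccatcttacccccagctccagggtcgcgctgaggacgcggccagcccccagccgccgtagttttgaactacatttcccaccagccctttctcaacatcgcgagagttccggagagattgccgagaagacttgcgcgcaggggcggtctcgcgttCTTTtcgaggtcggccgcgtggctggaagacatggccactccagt
The RefSeq table held a promoter for 9 of the 10 hosts. TATAA, searched on the sense strand, lay within 50 bases of the start in 5 of the 9 (ZFAS1, SNHG12, SNHG5, SNHG7 and SNHG8), against 6.2% of 35116 promoters. In those 5 it began between positions -34 and -28 relative to the start. CTTT, a run that a pyrimidine tract can contain, lay in that window in 7 of the 9, against 32.4% of all promoters. On either strand and over the whole window TATAA was found in 6 of the 9, against 20.4%, and CTTT in 9 of the 9, against 86.4%. CACGTG was found in 1 of the 9 on either strand, SNHG7, against 7.26%, and TGANTCA in 0 of the 9, against 7.71%. The motifs were chosen after the sequences were seen, TATAA and CTTT can share letters where they adjoin, and a match describes letters and not a bound site.

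The tables' gene models, on hg19, set what an exon read and an intron read mean here. In SNHG1 (chr11:62619459-62623385) merged exons cover 96.6% of the gene, which leaves 135 intron bases, so the stretches that hold its snoRNAs mostly count as exon. Merged exons cover 92.6% of SNHG15 (chr7:45022621-45026559), 83.2% of SNHG3 (chr1:28832491-28837403), 82.8% of SNHG8 (chr4:119199863-119200977) and 76.0% of SNHG12 (chr1:28905049-28909494). They cover 72.9% of GAS5 (chr1:173833037-173838019), 70.7% of SNHG16 (chr17:74553847-74561429) and 63.7% of SNHG7 (chr9:139615817-139622635). SNHG5 (chr6:86370709-86388450) and ZFAS1 (chr20:47894714-47905796) are the reverse, with exons over 12.4% and 9.9% of the gene. SNHG1, SNHG5, SNHG8 and SNHG15 overlapped no other gene row. SNHG3 lay wholly inside RCC1, so none of its reads were unique to it. ZFAS1 overlapped ZNFX1, SNHG7 overlapped FAM69B, SNHG12 overlapped TRNAU1AP at its end, SNHG16 overlapped ST6GALNAC2 and GAS5 overlapped ZBTB37, and strand use in the counting is not given in the sources used here.

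Parent control replicate 1 held 135592046 exon reads, and the remaining 11 libraries 42439957 to 63606344. It differed from both other parent controls by a chi-square of 193.44 and 152.76 for each degree of freedom, where other pairs within groups gave 4.98 to 18.77. Its intron share, 26.31%, was the lowest, where the others had 28.65% to 33.55%. It was the lowest of the parent controls in exon reads for 6 of the 10 hosts and the highest in intron reads for 8. Knockout camptothecin replicate 3 was the lowest of its group in exon reads for 9. Values without these libraries therefore stand beside several of the results they move. SLFN11 itself (chr17:33677323-33700719) was read at 112.3 ± 4.93 CPM (SD, n = 3) in untreated parent and 86.92 ± 1.58 in untreated knockout libraries, so its transcript was still present in cells labelled knockout, and read counts do not show whether the protein was. Of 17 T lymphoblast markers, 17 averaged at least 1 CPM, while summed myeloid markers stayed at or below 1.64 CPM and summed erythroid markers at or below 1.67 CPM. Summed markers of epithelial cells and fibroblasts were at 847 to 1100 CPM, of which VIM, the intermediate filament gene also expressed in lymphoid cells, held 843 to 1100 CPM and EPCAM at most 7.97 CPM. Summed B lineage markers were at or below 54.5 CPM, and the myeloid marker CD14 had a median of 0.0464 CPM. Summed T lymphoblast markers were lower with camptothecin, 1680 to 1710 CPM against 2300 to 2450 in parent cells and 2210 to 2240 against 2740 to 2770 in knockout cells, and whether that bears on the hosts was not tested.

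Levels are exon CPM, meaning counts relative to each library's TMM-scaled total, and between genes they are given as CPM per kilobase of exon (kb). Per length, SNHG3 was highest in untreated parent cells at 164.6 ± 25.4 CPM per kb (SD, n = 3). None of the SNHG3 reads were unique to it, and the row of its snoRNA SNORA73B took 19.9% to 29.5% of them over the libraries. SNHG8 followed at 121.4 ± 5.38 and ZFAS1 at 79.74 ± 3.45. SNHG1 at 68.11 ± 4.93 and GAS5 at 63.34 ± 0.903 were next, and their libraries overlapped. SNHG5, at 39.59 ± 0.684, and SNHG15, at 31.26 ± 3.10, came below them without overlap. SNHG16 at 23.24 ± 0.526 and SNHG12 at 22.25 ± 1.23 overlapped, and SNHG7 was lowest at 17.42 ± 2.11. Camptothecin-treated parent cells had the same order except that SNHG12, at 38.34 CPM per kb, stood above SNHG16, at 27.76, with no overlap between their libraries. In untreated knockout cells GAS5, at 50.09, stood above SNHG1, at 47.29.

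The first comparison asked how the hosts of SLFN11-positive cells answered camptothecin. Exon reads of 9 of the 10 hosts rose and none fell, where 16.8% of all tested genes rose and 17.1% fell. The median log2 change over the 10 was 0.467, with a range of 0.242 to 0.941, against a median of 0.013 over all tested genes. In bulk RNA, fewer cells of a type and less RNA per cell cannot be told apart.

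Among the hosts of box C/D snoRNAs, ZFAS1, host of the SNORD12 copies, rose most. Its exon reads in replicates 1, 2 and 3 were 87.11, 83.89 and 91.42 CPM with DMSO and 173.3, 165.7 and 164.6 CPM with camptothecin. The treated libraries all lay above the control libraries, a 1.92-fold rise (log2 0.94 ± 0.064 SE, adjusted p = 8.72e-09). SNHG1, host of a row of C/D snoRNAs, was read at 278.9, 242.3 and 253.6 CPM with DMSO and at 428.7, 411.6 and 407.6 CPM with camptothecin. The groups did not overlap, and the rise was 1.61-fold (log2 0.69 ± 0.066, adjusted p = 5.05e-07).

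GAS5, first described as a transcript that builds up in growth-arrested cells and known to bind the glucocorticoid receptor, was read at 227.4, 233.7 and 228.9 CPM with DMSO. With camptothecin it was read at 319.7, 314.7 and 316.5 CPM. It rose 1.38-fold (log2 0.46 ± 0.059, adjusted p = 1.15e-05), with little spread in either group. SNHG5, host of SNORD50B, rose from 85.6, 88.25 and 88.19 CPM to 123.6, 117.1 and 118.8 CPM. That was a 1.37-fold rise (log2 0.46 ± 0.071, adjusted p = 8.25e-05) without overlap. SNHG16, host of SNORD1A, SNORD1B and SNORD1C, moved least of the called hosts. Its libraries went from 127.9, 123.1 and 122.9 CPM to 150.1, 152.6 and 143.9 CPM, a 1.19-fold rise (log2 0.26 ± 0.063, adjusted p = 0.00433).

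SNHG12, whose introns hold both kinds of snoRNA, rose 1.72-fold (log2 0.78 ± 0.065, adjusted p = 9.28e-08). Its libraries were at 79.89, 73.55 and 72.01 CPM with DMSO and at 130.2, 129.7 and 128.5 CPM with camptothecin, well apart. Its neighbour TRNAU1AP, which encodes a factor for selenocysteine transfer RNA and overlaps its end by a few bases, also rose in the unique exon reads (log2 0.38 ± 0.067, adjusted p = 0.000247).

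The hosts of box H/ACA snoRNAs rose too, though SNHG3 gave no call. SNHG8, host of SNORA24, went from 106.3, 115.3 and 114.6 CPM to 163.8, 160.8 and 157.8 CPM (log2 0.52 ± 0.061, adjusted p = 4.29e-06). SNHG15, host of SNORA9 and known for a short-lived transcript, went from 101.1, 121.9 and 119.1 CPM to 156.9, 158.7 and 158.2 CPM (log2 0.47 ± 0.070, adjusted p = 5.67e-05). SNHG7, host of SNORA17A and SNORA17B, went from 65.34, 82.73 and 78.97 CPM to 100.4, 97.23 and 96.61 CPM (log2 0.38 ± 0.074, adjusted p = 0.0008). For each of the 3 the treated libraries lay above all controls, and parent control replicate 1 was the lowest control. SNHG3, host of SNORA73A and SNORA73B, was at 554.3, 745.5 and 718.9 CPM with DMSO and at 737.1, 829.1 and 821.7 CPM with camptothecin. Those groups overlapped and the change was not called (log2 0.24 ± 0.092, adjusted p = 0.0522). With 1 library left out in turn, SNHG3 was called in 3 of 12 fits, and it was called with no filter (log2 0.23, adjusted p = 0.0253). Without parent control replicate 1 the SNHG3 change was 0.124, still not called (adjusted p = 0.0598), while 9 hosts were called as before. Scaling by library size alone, which moved the median of all genes to 0.138 and the share of called genes that rose from 49.6% to 67.2%, gave SNHG3 a log2 change of 0.359 (adjusted p = 0.0258).

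**Figure D1:**
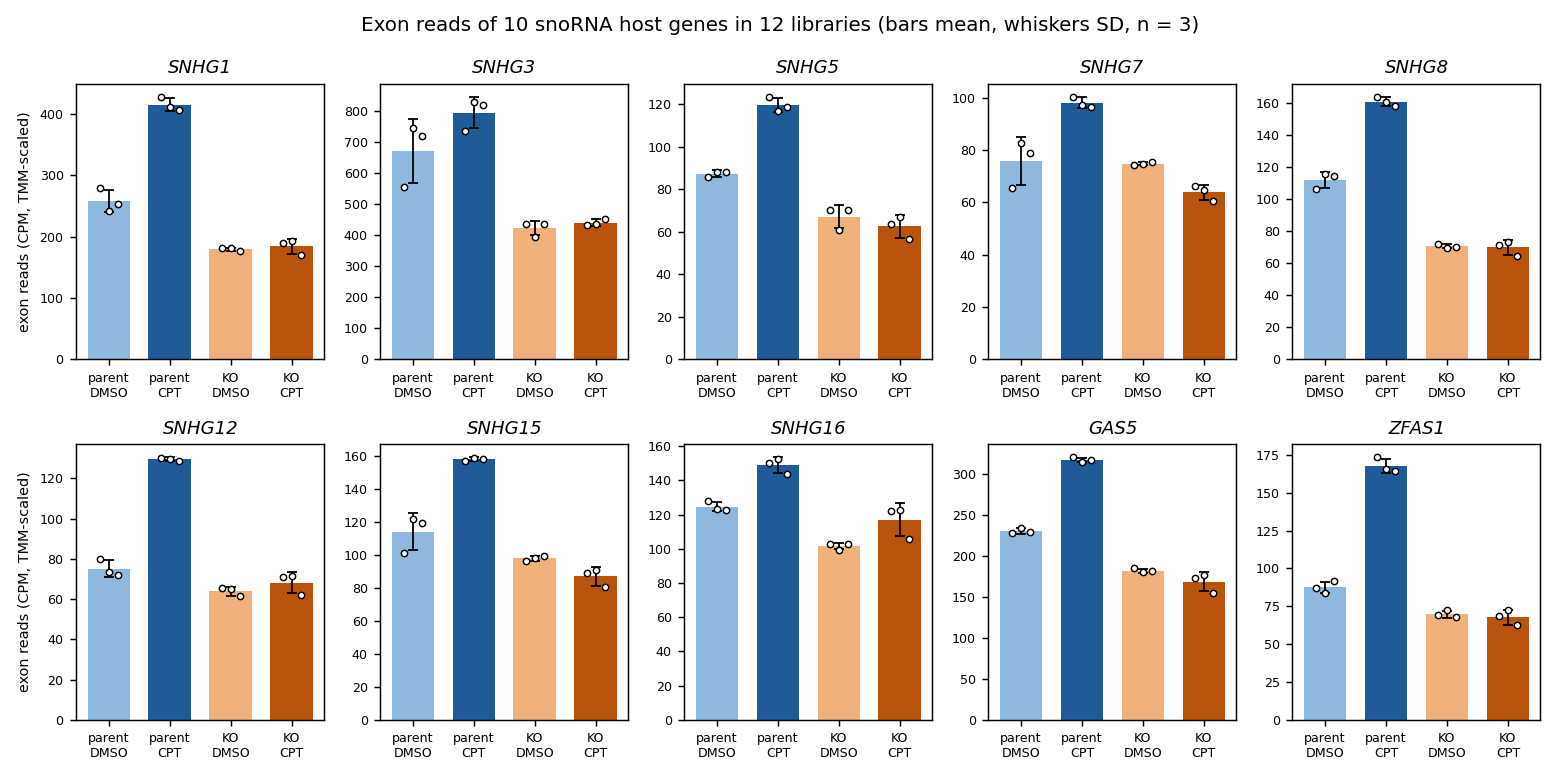
Exon reads of each host (vertical axis, TMM-scaled CPM, starting at 0 and set per panel) in the 4 groups: parent or knockout (KO) cells with DMSO or camptothecin (CPT), with bars for means, whiskers for SD (n = 3) and a point per library. ZFAS1 goes from 87.47 to 167.9 CPM in parent cells and from 69.85 to 67.87 CPM in knockout cells, and SNHG7, with 74.67 CPM in untreated knockout cells, starts from about its untreated parent level and falls with drug in the knockout.

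In cells labelled knockout, camptothecin at the same dose and time gave 2 calls among the 10 hosts, 1 in each direction. SNHG16 rose and SNHG7 fell, where 7.3% of tested genes rose and 9.28% fell. The median log2 change was -0.0271, against 0.018 over all tested genes. SNHG16 went from 102.8, 99.4 and 102.7 CPM to 122.2, 122.7 and 105.7 CPM (log2 0.20 ± 0.063, adjusted p = 0.0384). SNHG7 went from 74.15, 74.61 and 75.26 CPM to 66.27, 64.6 and 60.52 CPM (log2 -0.23 ± 0.075, adjusted p = 0.0478). Neither group pair overlapped, yet both adjusted p-values lay close to the threshold: with 1 library left out in turn, SNHG16 was called in 4 of 12 fits and SNHG7 in 2. Without knockout camptothecin replicate 3, SNHG16 was at 0.268 (adjusted p = 0.00389) and SNHG7, no longer called, at -0.191 (adjusted p = 0.148).

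The largest riser of the parent cells did not follow in the knockout. ZFAS1 was at 69.47, 72.33 and 67.76 CPM with DMSO and at 68.84, 72.31 and 62.47 CPM with camptothecin (log2 -0.04 ± 0.064, adjusted p = 0.738). These libraries overlapped almost fully. SNHG1 was at 180.7, 181.1 and 176.2 CPM with DMSO and at 188.9, 193 and 170.8 CPM with camptothecin (log2 0.04 ± 0.066, adjusted p = 0.765). GAS5 was at 184.6, 179.8 and 181.3 CPM and then at 173.3, 176.7 and 155 CPM (log2 -0.11 ± 0.059, adjusted p = 0.237). The treated GAS5 libraries all lay below the controls, but by less than the test required. The other 5 hosts had log2 changes between -0.17 (SNHG15) and 0.09 (SNHG12), none called. Without parent control replicate 1, SNHG15 was called lower (log2 -0.164, adjusted p = 0.00365). When libraries were scaled by size alone, which moved the median of all genes to 0.171, SNHG1 (log2 0.191, adjusted p = 0.0105) and SNHG12 (log2 0.246, adjusted p = 0.00357) were called higher and SNHG7 was not called (log2 -0.074).

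**Figure D2:**
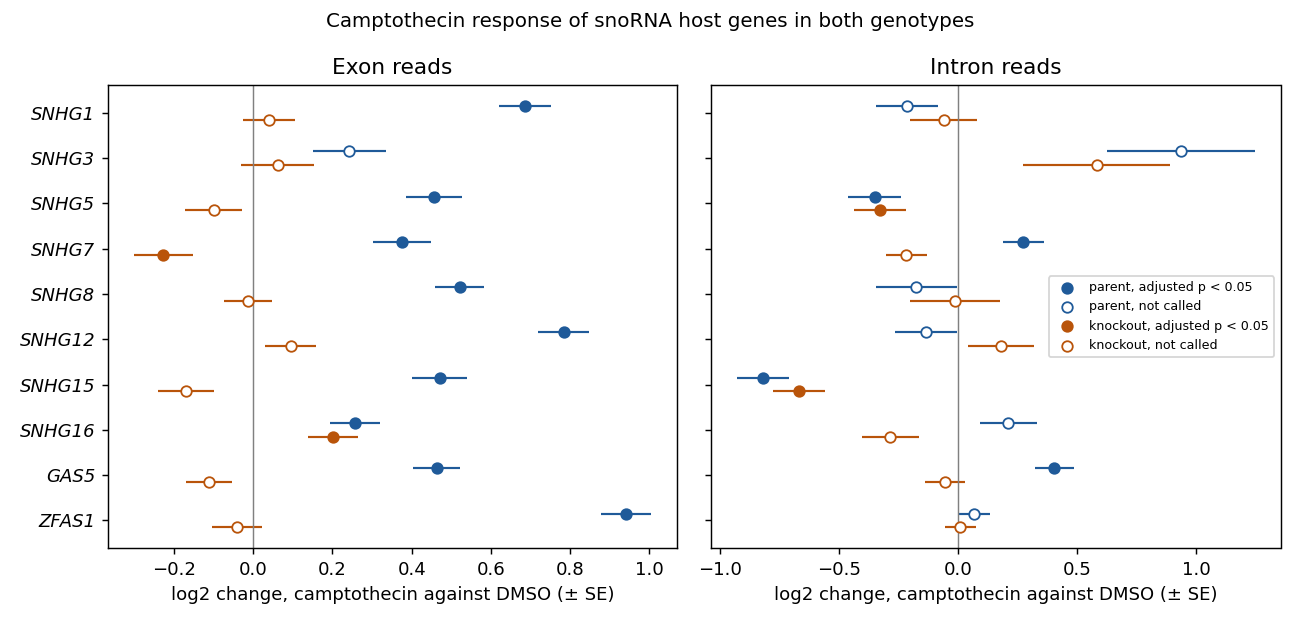
Log2 change with camptothecin against DMSO (horizontal axis, point and SE bar) of each host in parent (blue) and knockout (orange) cells, for exon reads (left) and intron reads (right), with filled points for an adjusted p under 0.05. In exons the parent points lie between 0.242 and 0.941 and the knockout points between -0.227 and 0.201. In introns SNHG15 fell in both genotypes, and the SNHG5 parent value goes from -0.35 to -0.144 without parent control replicate 1.

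The difference between both responses was tested in the same model, as the knockout response minus the parent response. It was called for 8 of the 10 hosts, all lower in the knockout, where 4.47% of tested genes were called lower. The median over the 10 was -0.589 against 0.024 for all tested genes. ZFAS1 differed most, by a log2 of -0.98 ± 0.090 (adjusted p = 2.02e-06), followed by SNHG12 at -0.69 ± 0.092 (adjusted p = 0.000143) and SNHG1 at -0.65 ± 0.094 (adjusted p = 0.000323). SNHG15 differed by -0.64, SNHG7 by -0.60, GAS5 by -0.57, SNHG5 by -0.56 and SNHG8 by -0.53, with adjusted p-values from 0.00035 to 0.00255. The 2 hosts not called were SNHG3 (log2 -0.18 ± 0.13, adjusted p = 0.492) and SNHG16 (log2 -0.05 ± 0.089, adjusted p = 0.802). All 8 calls were also made in each of the 12 fits that left out 1 library. Of the called genes 29.2% were higher, and 46.3% with library size alone, under which the same count of 8 hosts was called lower.

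Without drug, the comparison of genotypes gave lower exon reads in the knockout for 9 of the 10 hosts, where 7.44% of tested genes were lower, and higher reads for none. The median log2 difference was -0.331, against -0.0098 over all tested genes. SNHG8 was at 106.3, 115.3 and 114.6 CPM in parent and at 71.72, 69.47 and 69.72 CPM in knockout libraries (log2 -0.67 ± 0.061, adjusted p = 6.12e-07). SNHG3 was at 395.6 to 436.3 CPM in the knockout, below the 554.3 CPM of the lowest parent library (log2 -0.67 ± 0.093, adjusted p = 6.32e-05). Both hold box H/ACA snoRNAs. SNHG1 followed at -0.53 ± 0.066 (adjusted p = 2.47e-05), and SNHG5, GAS5, ZFAS1 and SNHG16 lay between -0.38 and -0.29 with adjusted p-values from 0.000667 to 0.00383.

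SNHG12 (log2 -0.23, adjusted p = 0.021) and SNHG15 (log2 -0.22, adjusted p = 0.0423) were the weakest calls without drug. Both were lost when only the groups compared were fitted (adjusted p = 0.0733 and 0.155), and SNHG15 was called in 2 of the 12 fits that left out 1 library. Both were also lost when libraries were scaled by size alone (log2 -0.142, adjusted p = 0.0901, and log2 -0.137, adjusted p = 0.285), which left 7 hosts lower and moved the share of called genes that were higher from 52.6% to 72.7%. SNHG7 was at 65.34 to 82.73 CPM in parent and at 74.15 to 75.26 CPM in knockout libraries, so the groups overlapped (log2 -0.02 ± 0.075, adjusted p = 0.91).

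With drug in both genotypes, all 10 hosts were lower in the knockout, where 14.6% of tested genes were lower. The log2 differences ran from -1.31 for ZFAS1 (2.47-fold, adjusted p = 1.45e-10), -1.21 for SNHG8 (2.31-fold) and -1.18 for SNHG1 (2.26-fold) to -0.35 for SNHG16 (1.27-fold, adjusted p = 0.00046). This comparison shares its treated parent libraries with the parent response and its treated knockout libraries with the knockout response, so its calls are not separate from those above. For ZFAS1 the treated parent libraries stood at 164.6 to 173.3 CPM and the treated knockout libraries at 62.47 to 72.31 CPM, far apart.

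Intron reads gave another picture. In parent cells 2 hosts rose and 2 fell with camptothecin, where 12.1% of genes tested on introns rose and 14.2% fell, and the median over the 10 was -0.0328. GAS5 intron reads went from 45.7, 47.86 and 49.73 CPM to 65.95, 61.11 and 62.47 CPM (log2 0.41 ± 0.081, adjusted p = 0.000655). SNHG7 went from 74.34, 69.34 and 68.56 CPM to 92.18, 83.79 and 81.03 CPM (log2 0.28 ± 0.085, adjusted p = 0.0195). In both genes, exon and intron counts thus rose side by side and the groups did not overlap. Most of these intron reads were also exon reads, so both counts are not separate measures. In parent control replicate 1, GAS5 had 26748 exon, 2008 intron and 27153 total reads, and SNHG7 had 7687, 3266 and 8654.

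SNHG15 introns fell from 30.86, 30.37 and 26.59 CPM to 17.12, 16.8 and 15.91 CPM (log2 -0.82 ± 0.11, adjusted p = 3.89e-06), opposite to its exons. SNHG5 introns went from 163.7, 115.5 and 109.5 CPM to 101.1, 108.3 and 96.17 CPM (log2 -0.35 ± 0.11, adjusted p = 0.0206). That call rested on parent control replicate 1, the highest library: without it the log2 change was -0.144 (adjusted p = 0.1). It was also lost without knockout camptothecin replicate 3 (log2 -0.352, adjusted p = 0.0536). ZFAS1 introns, which lie over most of that gene, were at 417.4, 366.9 and 367.5 CPM with DMSO and at 402.6, 410.8 and 395.2 CPM with camptothecin. These overlapped, with a log2 change of 0.07 ± 0.065 (adjusted p = 0.49) beside the 0.94 of its exons.

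SNHG3 introns, which also lie in RCC1, were the most variable. They were at 466.5, 777.7 and 723.7 CPM with DMSO and at 784.3, 1494 and 1489 CPM with camptothecin in parent cells, and at 471.2, 421.2 and 505.6 CPM against 482, 803.2 and 808.4 CPM in knockout cells. In both genotypes replicates 2 and 3 with camptothecin were high and replicate 1 lay near the controls. In treated parent replicates 1, 2 and 3, raw SNHG3 intron reads were 20573, 38675 and 34727 and exon reads 46783, 51194 and 44839. Total SNHG3 reads were 65799, 70916 and 62596, so replicates 2 and 3 held more reads counted as both exon and intron than replicate 1. Treated knockout libraries showed the same. The high intron values thus did not come with a like rise in total SNHG3 reads. Neither change was called (log2 0.94 ± 0.31, adjusted p = 0.0605, and 0.58 ± 0.31, adjusted p = 0.271). The parent change was called with library size alone (log2 1.05, adjusted p = 0.0383) and with no filter on low counts (log2 0.928, adjusted p = 1.1e-33), and the knockout change with no filter (log2 0.586, adjusted p = 3.06e-13). With no filter the sizes thus stayed near the 0.937 and 0.583 of the main fit. Those small p-values came with a smaller estimated spread and not with a larger change, and the replicates were as far apart as before.

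In knockout cells SNHG15 introns (log2 -0.67 ± 0.11, adjusted p = 0.000139) and SNHG5 introns (log2 -0.33 ± 0.11, adjusted p = 0.0457) fell and none rose, where 9.05% of genes fell and 7.85% rose. The SNHG5 call was made in 3 of the 12 fits that left out 1 library, and not with library size alone (log2 -0.239, adjusted p = 0.0963). Without parent control replicate 1, SNHG7 introns were called lower (log2 -0.219, adjusted p = 0.0325). SNHG15 was at 24.15, 25.02 and 25.05 CPM with DMSO and at 16.37, 16.96 and 13.32 CPM with camptothecin, without overlap. The difference of the SNHG15 intron responses between genotypes was not called (log2 0.15 ± 0.15, adjusted p = 0.651). The difference of intron responses was called for GAS5 (log2 -0.46 ± 0.12, adjusted p = 0.02) and SNHG7 (log2 -0.49 ± 0.12, adjusted p = 0.0164), both lower in the knockout, where 2.81% of genes were called lower. With 1 library left out in turn, GAS5 was called in 8 of 12 fits and SNHG7 in 10.

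Without drug, intron reads of 6 hosts were lower in the knockout (SNHG1, SNHG5, SNHG8, SNHG12, GAS5 and ZFAS1), where 6.43% of genes were lower. SNHG8 had the largest difference (log2 -0.98 ± 0.18, adjusted p = 0.000632), at 24.08, 13.01 and 13.94 CPM in parent and 7.878, 8.964 and 9.367 CPM in knockout libraries. Without parent control replicate 1 it was -0.626 (adjusted p = 0.00168). With drug in both genotypes 8 hosts were lower (13.1% of genes), all but SNHG3 and SNHG15. SNHG12 was the weakest of these calls (log2 -0.361, adjusted p = 0.0443). It was called in 6 of the 12 fits that left out 1 library, and not with library size alone (log2 -0.323, adjusted p = 0.0616). With no filter, SNHG3 introns were called lower in that comparison too (log2 -0.841, adjusted p = 8.25e-28). The size was nearly that of the main fit, which gave no call (log2 -0.847, adjusted p = 0.0789).

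**Figure D3:**
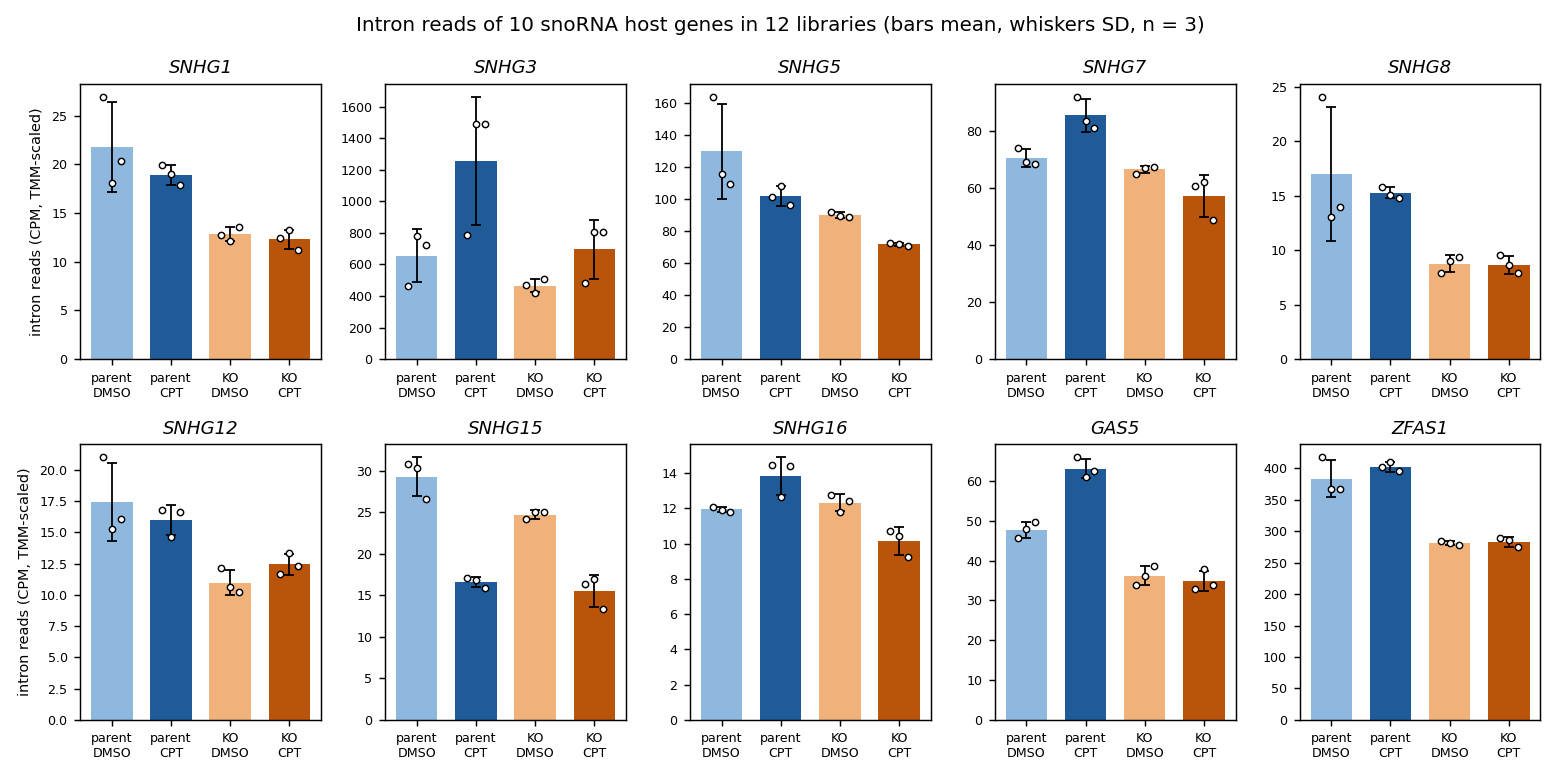
Intron reads of each host (vertical axis, TMM-scaled CPM, starting at 0 and set per panel) in the same 4 groups, with bars for means, whiskers for SD (n = 3) and a point per library. ZFAS1 has means of 383.9 CPM with DMSO and 402.9 CPM with camptothecin in parent cells, SNHG15 falls in both genotypes, and in SNHG1, SNHG5, SNHG8 and SNHG12 the first parent control is the highest point.

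The change of exon reads was then set against the change of intron reads of the same libraries. A read could count as both: in parent control replicate 1, SNHG1 had 32809 exon, 1184 intron and 32829 total reads. Most of its intron reads there were thus also exon reads. ZFAS1 had 10248, 18337 and 26895, so most of its intron reads were not. SNHG15 had 11892, 1356 and 12332, so most of its intron reads were also exon reads, as in SNHG1. In hosts like SNHG1 and SNHG15 the contrast does not set separate reads against each other. How far this moved the contrast was not tested. In parent cells exons rose over introns for 6 hosts and fell against them for SNHG3, where 8.71% of the 17351 genes tested this way rose and 10.2% fell. SNHG15 moved most: its exon reads per intron read were 8.77, 9.42 and 10.3 with DMSO and 22.2, 22.5 and 23.3 with camptothecin (log2 1.31 ± 0.11, adjusted p = 1.29e-06). ZFAS1 went from 0.559, 0.537 and 0.571 to 1.04, 0.962 and 0.975 (log2 0.88 ± 0.078, adjusted p = 2.98e-06). SNHG1 went from 27.7, 31.5 and 28.6 to 52.1, 51.8 and 53.3 (log2 0.90 ± 0.098, adjusted p = 1.76e-05). In these hosts no treated library overlapped a control.

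SNHG12 (log2 0.92, adjusted p = 4.41e-05), SNHG5 (log2 0.79, adjusted p = 0.000772) and SNHG8 (log2 0.68, adjusted p = 0.023) made up the 6. Parent control replicate 1 had the lowest ratio of its group in SNHG5 and SNHG8, and without it their values were 0.583 and 0.3, both still called. With 1 library left out in turn, SNHG5 was called in 12 of 12 fits and SNHG8 in 9 (adjusted p up to 0.0724). The ratio in SNHG3 went from 3.18, 2.25 and 2.28 to 2.27, 1.32 and 1.29 (log2 -0.65 ± 0.19, adjusted p = 0.0248), and was not called without that library (log2 -0.57, adjusted p = 0.248). The ratios of 1.32 and 1.29 came from the treated libraries with more SNHG3 reads counted as both exon and intron. How far such reads moved the SNHG3 call was not tested. GAS5 (log2 0.07 ± 0.077) and SNHG7 (log2 0.12 ± 0.11), whose introns rose, and SNHG16 (log2 0.05 ± 0.086) gave no call.

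In knockout cells 2 hosts gained exon over intron reads, SNHG15 (log2 0.51 ± 0.11, adjusted p = 0.00892) and SNHG16 (log2 0.49 ± 0.091, adjusted p = 0.0025), where 2.1% of genes did. The SNHG15 ratio went from 9.68, 9.27 and 9.78 to 12.7, 12.7 and 12.8, above every control but far below the treated parent libraries. Without knockout camptothecin replicate 3 the SNHG15 call was lost (log2 0.453, adjusted p = 0.0531). Without parent control replicate 1, SNHG5 was called as well (log2 0.245, adjusted p = 0.032). The difference between the genotypes' responses was called for 4 hosts, all lower in the knockout, where 0.317% of genes were: SNHG12 at -1.0 ± 0.16 (adjusted p = 0.0139), ZFAS1 at -0.92 ± 0.11 (adjusted p = 0.00153), SNHG15 at -0.80 ± 0.16 (adjusted p = 0.0334) and SNHG1 at -0.79 ± 0.14 (adjusted p = 0.0254). With 1 library left out in turn, ZFAS1 was called in 12 of 12 fits, SNHG12 in 9 and SNHG15 and SNHG1 in 4 each. Without drug, the genotypes gave no call in this measure for the hosts, where 0.715% of genes were called in either direction. By unadjusted p, SNHG1 (0.029), SNHG12 (0.00158) and SNHG16 (0.00186) lay under 0.05 there.

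**Figure D4:**
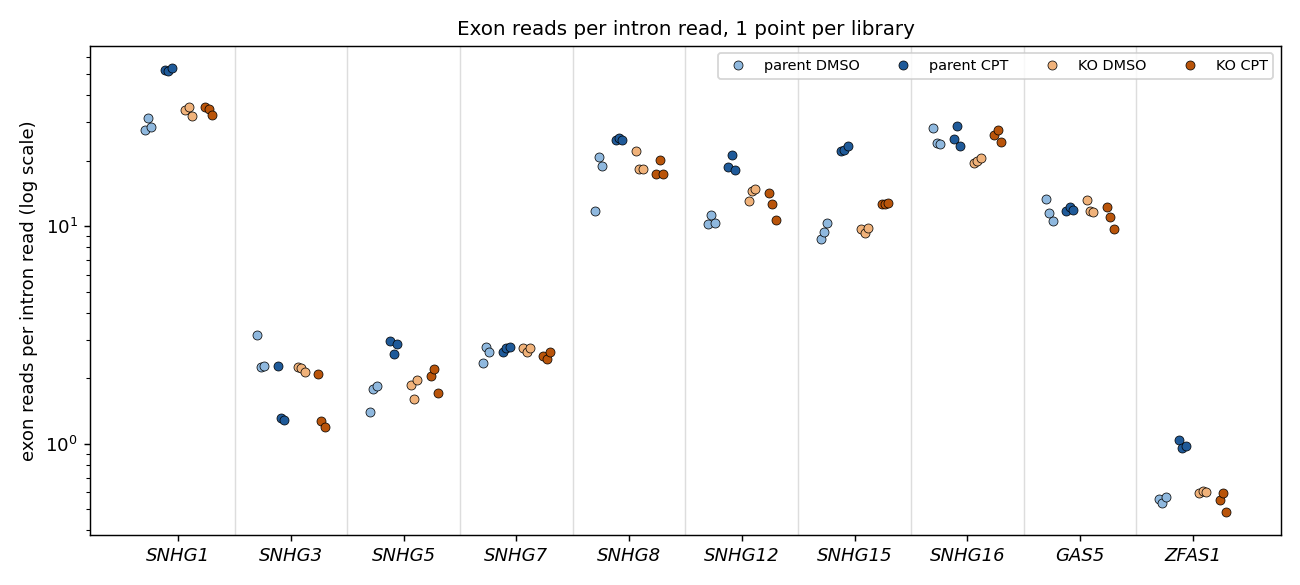
Exon reads per intron read (vertical axis, log scale) in each of the 12 libraries, a point per library, for each host. SNHG15 goes from 8.77 to 10.3 up to 22.2 to 23.3 in parent cells and from 9.27 to 9.78 up to 12.7 to 12.8 in knockout cells, and the ZFAS1, SNHG1 and SNHG12 points rise in parent cells.

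Exon reads in stretches that no other gene overlaps were counted apart. SNHG3 had none, and of the other 9 hosts 9 rose in parent cells, where 19.9% of the genes tested on unique exons rose. In the knockout SNHG16 rose (log2 0.23 ± 0.060, adjusted p = 0.012), where 10.5% of genes did, and SNHG7 missed the threshold (log2 -0.215, adjusted p = 0.0612). The difference of responses was again called lower for 8 hosts, where 5.86% of genes were, and untreated knockout cells were lower for 8, where 10.3% were. ZFAS1, 77.3% of whose exon bases are unique, gave a parent change of log2 0.95 ± 0.061 (adjusted p = 6.77e-09) and a difference of -0.97 ± 0.086. In unique intron reads SNHG7 fell in the knockout with a call (log2 -0.28 ± 0.092, adjusted p = 0.0325), as 9.33% of genes did, while all its intron reads gave none. Among the overlapping coding genes, unique exons of ZNFX1, an RNA helicase-like protein gene beside ZFAS1, rose by 0.32 ± 0.056 in parent cells (adjusted p = 0.000219), and the difference of its response between genotypes was not called (log2 -0.17, adjusted p = 0.212). RCC1, the nuclear exchange factor of Ran that encloses SNHG3, gave no call with drug in parent cells (log2 -0.07, adjusted p = 0.478) and was lower in untreated knockout cells (log2 -0.32, adjusted p = 0.00328) in its unique exons.

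The tables also held 7 rows for snoRNAs inside 5 of the hosts, and all 7 passed the filter. They are not free of host reads, since a read of the unspliced host crosses the same bases, and the library kit, which decides how much short RNA is kept, is not given in the sources used here. SNORD12C of ZFAS1 rose in parent cells from 2.2, 2.71 and 2.78 CPM to 5.94, 6.12 and 6.07 CPM (log2 1.25 ± 0.15, adjusted p = 5.38e-06). In knockout cells it was at 2.86, 2.13 and 2.63 CPM with DMSO and at 2.79, 2.94 and 2.36 CPM with camptothecin, and the difference of responses was called (log2 -1.16 ± 0.21, adjusted p = 0.003). SNORD12B, from the same host, rose less in parent cells, from 3.43, 4.34 and 4.93 CPM to 5.56, 6.48 and 5.88 CPM (log2 0.51 ± 0.14, adjusted p = 0.0106).

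SNORD12, the remaining copy, was at 2.04, 5.1 and 4.74 CPM with DMSO and at 4.66, 4.44 and 5.15 CPM with camptothecin, which overlapped (log2 0.29 ± 0.25, adjusted p = 0.419). Parent control replicate 1 was the low library there, as it was for SNORD78 of GAS5 (1.16 CPM beside 3.69 and 4.27) and for SNORA73B of SNHG3 (141 CPM beside 297 and 281). SNORA73B carried 149134 reads over the 12 libraries and took 19.9% of the reads of SNHG3 in parent control replicate 1 and 25.5% to 29.5% in the others. SNORA73B, SNORD99, SNORD1B and SNORD78 gave no call in either treatment comparison. Neither did any of the 7 rows in the untreated comparison of genotypes.

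Further hosts outside the 10 came from a list of 15 mostly noncoding hosts, of which 8 could be tested. In parent cells 4 of the 8 rose and 0 fell, where 16.8% of all tested genes rose and 17.1% fell. Those that rose were SNHG17 (log2 0.76, adjusted p = 2.93e-06), SNHG11 (log2 0.70), SNHG9 (log2 0.72) and DANCR (log2 0.19). The median of the 8, 0.105, lay below the 0.467 of the 10. The difference of responses was called lower in the knockout for SNHG17 (log2 -0.85, adjusted p = 0.000307) and SNHG11 (log2 -0.70, adjusted p = 0.00189), as for 4.47% of tested genes. Untreated knockout cells had lower SNHG6 (log2 -0.72), TAF1D (log2 -0.34) and DANCR (log2 -0.24), where 7.44% of tested genes were lower.

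A further list held hosts that mostly encode proteins, many of them of the ribosome. Of 47 tested, 3 rose and 18 fell in parent cells, where 16.8% of all tested genes rose and 17.1% fell. The median of the 47 was -0.159. The pseudogene CCT6P1 rose (log2 1.08, adjusted p = 1.84e-08), as did NOP56 and TNPO2, while HSPA8, a constitutive chaperone gene, fell (log2 -0.83) together with IARS (log2 -0.49) and NFATC3 (log2 -0.51). The difference of responses was called for CCT6P1 (log2 -0.92) and HSPA8 (log2 0.81), in opposite directions. Without drug 23 of the 47 were lower in the knockout and 0 higher, where 7.44% of all tested genes were lower. RPS2 (log2 -0.52) and RPL13A (log2 -0.39) were among the smallest p-values.

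Proteins that bind, build or process snoRNAs showed no common direction. Over all tested genes 16.8% rose and 17.1% fell in parent cells. Of 8 tested core proteins, NOP56 of the C/D particle rose in parent cells (log2 0.38, adjusted p = 0.000522), and DKC1, the pseudouridine synthase (log2 -0.41, adjusted p = 0.000759), and FBL, the methyltransferase (log2 -0.20), fell. No core protein gave a call for the difference of responses. Of 13 assembly factors 3 rose and 3 fell in parent cells, among them NAF1 (log2 0.49) and RUVBL1 (log2 -0.53). Of 19 genes of the nuclear exosome and intron turnover 4 rose and 4 fell, with DBR1, which opens intron lariats, up (log2 0.70, adjusted p = 1.19e-05) and SKIV2L2, the exosome's helicase, down (log2 -0.66). Of 17 genes of nonsense-mediated decay 7 rose and 2 fell, and UPF1, its central helicase, rose (log2 0.49, adjusted p = 1.21e-05). UPF1 (log2 -0.41, adjusted p = 0.00957) and SMG9 (log2 -0.56, adjusted p = 0.000451) were the 2 of the 17 whose response was called lower in the knockout, as for 4.47% of tested genes.

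The hosts also varied together across the libraries. The Pearson correlation of a host's log2 CPM with the mean of the other 9 over the 12 libraries ran from 0.874 for SNHG7 and 0.886 for SNHG16 to 0.993 for GAS5. These points share their libraries and the 4 groups, so the values describe the pattern and are no test. Among 10330 other genes that averaged at least 10 CPM, the 10 closest to the hosts' mean profile were POLM (r = 0.981), LONP1 (0.981), AMPD2 (0.978), RABGGTB (0.975), BIN3 (0.975), TFE3 (0.974), RAD52 (0.973), C6orf48 (0.972), GTF2H2 (0.972) and ZNF26 (0.971). The size of their change differed: in parent cells C6orf48 went from 145 to 251 CPM and GTF2H2 from 63.9 to 69.8 CPM. RABGGTB, with SNORD45A, SNORD45B and SNORD45C, and C6orf48, with SNORD48 and SNORD52, themselves enclose snoRNA rows, 2 of the 10, where 2.73% of the ranked genes do.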

How the data were processed

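RNA of 12 CCRF-CEM libraries was measured, 3 in each of 4 groups. The authors deposited a table for each library with raw read counts of every gene in exons, in introns and in total, beside counts of reads unique to a gene, per the file headers, and feature lengths in bases. Named per the submitters' processing notes are hg19, Picard 2.9.2, STAR 2.5.4a, Trimmomatic 0.39 and Trim Galore 0.6.2. Strand use, annotation, counting tool and library kit: not given in the sources used here. Table names mark duplicates as removed, which lowers counts of abundant short transcripts.

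Copies of genes on the Y chromosome, up to 32 per table, were left out, and 182 names at several places were kept apart. Exon counts, intron counts and their contrast within a library (library as block) were fitted for all genes with edgeR 4.0.16 in R 4.3.3 (filterByExpr with a minimum count of 10, TMM, robust quasi-likelihood, all 12 libraries), with Benjamini-Hochberg adjusted p below 0.05 as the call. SE is the log2 change over the square root of the F statistic, so it restates the test. A prior count of 2 entered log CPM for correlations. The common dispersion of exon counts was 0.0137. Alternatives were DESeq2 1.42.0 and its size factors, library size alone, no filter, unique or total gene reads, fewer libraries and a replicate block. Scripts were tested on simulated data.

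The members, gene lists and tests were chosen with earlier results of these data known. All 10 members were named, up to 4 genes of each other list by smallest p, counts of 5 or fewer in full, and the 10 genes most like the members.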

Additional observations from a re-analysis of the deposited data

Results flagged for a closer look

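The responses to camptothecin differed between genotypes by the interaction term for 14 values, each given as knockout minus parent on the log2 scale. In exon reads these were ZFAS1 at -0.982, SNHG12 at -0.69, SNHG1 at -0.649, SNHG15 at -0.641, SNHG7 at -0.603, GAS5 at -0.574, SNHG5 at -0.557 and SNHG8 at -0.534. In intron reads they were SNHG7 at -0.493 and GAS5 at -0.46. In the contrast of exon against intron reads they were SNHG12 at -1.0, ZFAS1 at -0.923, SNHG15 at -0.795 and SNHG1 at -0.788. GAS5 and SNHG7 thus differed in exon and in intron counts, which share many reads in these hosts. SNHG12, ZFAS1, SNHG15 and SNHG1 differed in exons and in exons against introns. The calls were not equally firm with 1 library left out in turn. The intron calls held in 8 of 12 fits for GAS5 and 10 for SNHG7. The calls of exons against introns held in 12 for ZFAS1, 9 for SNHG12 and 4 each for SNHG15 and SNHG1.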

How the results depend on the processing

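Of 2386 values of single hosts under the alternatives, none that was called changed direction, 98 lost their call and 29 gained one, and 43 uncalled values changed sign, to a size of at most 0.193. Exon calls of the knockout response fell from 2 hosts to 1 with DESeq2 size factors, with no filter, with reads unique to a gene and with the replicate block, rose to 3 with library size alone (SNHG1 and SNHG12 gained, SNHG7 lost) and with only the groups compared (SNHG15 gained), and were 2 with total gene reads (SNHG15 gained, SNHG16 lost). With 1 library left out they ranged from 0 to 3. Intron calls of the knockout response fell from 2 to 1 with library size alone and rose to 3 with reads unique to a gene (SNHG7 gained) and with no filter (SNHG3 gained). Their range with 1 library left out was 1 to 3, that of the intron difference of responses 0 to 2, and for exons against introns 1 to 3 in the knockout and 1 to 4 in the difference. The cause of these moves was not tested, beyond fewer samples in the fits that leave one out. Exon calls ranged from 9 to 10 in parent cells, 8 to 8 for the difference, 7 to 9 without drug and 10 to 10 with drug in those fits.

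Same-numbered libraries did not deviate together (18 pairs, correlations from -0.079 to 0.082), so the number was not taken as a pairing. The replicate block kept 8 hosts for the difference of exon responses and gave 10 in parent cells, with SNHG3 added (adjusted p = 0.0386). With the block SNHG3 introns were also called, higher with drug in parent cells (log2 0.918, adjusted p = 0.00633) and lower in treated knockout than in treated parent cells (log2 -0.834, adjusted p = 0.00944). Depth limits SNHG8, SNHG12, SNHG16 and SNHG1 introns, with group means below 22 CPM, and the snoRNA rows.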
